A study of Homo sapiens with 16 samples.

Results

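The genes described are 10 transcripts known to be induced by low oxygen, of 58735 genes listed: NDRG1, CA9, VEGFA, ADM, ANKRD37, EGLN3, BNIP3, PFKFB3, PFKFB4 and P4HA1. They were chosen by symbol, with earlier results of these data known, and the choice names NDRG1 for moving in opposite directions in the 2 lines. Their behaviour was followed in 2 established human pancreatic ductal adenocarcinoma (PDAC) cell lines, BxPC3 and PANC-1. Poly-A-enriched RNA was sequenced from gemcitabine-treated and untreated control cells, with 4 libraries in each of 4 groups: BxPC3 gemcitabine, BxPC3 control, PANC-1 gemcitabine and PANC-1 control. Gemcitabine is a deoxycytidine analogue that blocks DNA synthesis once phosphorylated in the cell. The labels give no dose, no duration and no low-oxygen exposure, and nothing in them says that replicates came from separate cultures. Each p-value is therefore set against the library-to-library spread alone, and that spread may be technical.

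Hypoxia-inducible factors (HIFs) are transcription factors made of an oxygen-labile alpha subunit and the stable partner ARNT. In oxygen, prolyl hydroxylases mark the alpha subunit, the VHL ubiquitin ligase recognises the mark, and the subunit is degraded. In low oxygen it persists, pairs with ARNT, binds the core motif ACGTG or GCGTG near target genes and raises transcripts for angiogenesis, glycolysis, pH control, collagen folding and mitochondrial turnover. Pancreatic ductal adenocarcinoma is known as a poorly perfused tumour in which these genes are often high. HIF activity is set mainly at the protein level, which transcript abundance does not show.

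Levels are FPKM, fragments per kilobase of transcript adjusted for the size of each library, so they can be compared between genes per length. The libraries held 22152034 to 37777222 reads in listed genes, and a count of 3 reads on 1 kb of transcript corresponded to 0.0803 to 0.138 FPKM. The library size that the FPKM values imply was not exactly this total. Reads in listed genes over that size were 1.003 to 1.045 in BxPC3 controls and 0.9628 to 0.9957 in treated BxPC3. In PANC-1 they were 0.9779 to 0.9861 in controls and 0.9833 to 1.02 with gemcitabine. The reason was not tested. PANC-1 gemcitabine replicate 1 stood apart from the other 3 of its group. Its median deviation from their mean on the log2(FPKM + 1) scale was 0.45 over the quartile of genes with the highest GC content and -0.42 over the quartile with the lowest. All 5 epithelial markers were above 1 FPKM in BxPC3. In PANC-1 4 of them were, the exception being CDH1, which encodes E-cadherin, at 0.551 FPKM with gemcitabine and 0.921 FPKM in controls. Summed leukocyte markers did not exceed 0.912 FPKM in any library, and summed fibroblast markers reached at most 12.5 FPKM, most of it COL1A1. Summed endothelial markers ranged from 5.66 to 6.37 FPKM with gemcitabine and from 1.49 to 1.71 FPKM in controls in BxPC3, mostly CDH5 with gemcitabine, and did not exceed 0.133 FPKM in PANC-1. Their part in the results below was not tested.

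The HIF core motif was searched in the RefSeq promoters (GRCh38.p14, 250 bases before to 50 after the gene start) of 8 of the 10 genes. VEGFA had none among the promoters available. NDRG1 was left out of the search, so nothing is said here about its promoter. ACGTG or GCGTG, on either strand, occurred in 48.4% of all 35093 promoters of that table, ACGTG in 21.4% and GCGTG in 36.5%, so a match is common and describes letters only. The palindrome CACGTG counts as a match on both strands. Among the genes shown, ANKRD37 held 3 matches to ACGTG, the PFKFB3 start below 2, CA9 and P4HA1 1 each, and BNIP3 2 matches to ACGTG with 4 to GCGTG. EGLN3 held none, ADM and PFKFB4 held 1 GCGTG each, and the other PFKFB3 start held 1 GCGTG. These 5 sequences are given because their genes span the responses described below, 5′ to 3′ in the sense of the gene, with motif matches in capitals:
CA9 (chr9:35673678-35673977, plus strand): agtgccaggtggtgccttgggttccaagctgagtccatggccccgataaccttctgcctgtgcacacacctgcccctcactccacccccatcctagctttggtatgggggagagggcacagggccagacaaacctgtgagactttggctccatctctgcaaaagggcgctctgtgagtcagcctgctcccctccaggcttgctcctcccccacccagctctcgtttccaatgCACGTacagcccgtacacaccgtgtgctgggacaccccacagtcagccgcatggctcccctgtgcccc
P4HA1 (chr10:73096817-73097116, minus strand): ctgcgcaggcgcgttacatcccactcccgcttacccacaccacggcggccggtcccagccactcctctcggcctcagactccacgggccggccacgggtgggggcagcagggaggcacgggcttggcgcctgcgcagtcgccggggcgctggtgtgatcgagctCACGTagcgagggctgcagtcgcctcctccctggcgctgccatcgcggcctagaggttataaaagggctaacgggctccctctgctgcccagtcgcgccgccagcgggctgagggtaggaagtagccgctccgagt
BNIP3 (chr10:131981874-131982173, minus strand): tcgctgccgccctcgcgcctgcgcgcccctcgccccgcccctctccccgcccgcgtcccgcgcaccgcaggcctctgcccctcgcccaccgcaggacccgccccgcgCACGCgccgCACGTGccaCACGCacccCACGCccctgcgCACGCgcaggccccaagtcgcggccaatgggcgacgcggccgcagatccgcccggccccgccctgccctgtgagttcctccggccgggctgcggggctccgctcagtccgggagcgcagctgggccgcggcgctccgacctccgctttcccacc
PFKFB3 (chr10:6202682-6202981, plus strand): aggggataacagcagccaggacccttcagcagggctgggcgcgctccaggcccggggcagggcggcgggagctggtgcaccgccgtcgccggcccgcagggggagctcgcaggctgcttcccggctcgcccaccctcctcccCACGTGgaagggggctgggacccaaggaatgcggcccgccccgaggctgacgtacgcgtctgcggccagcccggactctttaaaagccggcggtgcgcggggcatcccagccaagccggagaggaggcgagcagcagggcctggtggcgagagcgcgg
ANKRD37 (chr4:185396591-185396890, plus strand): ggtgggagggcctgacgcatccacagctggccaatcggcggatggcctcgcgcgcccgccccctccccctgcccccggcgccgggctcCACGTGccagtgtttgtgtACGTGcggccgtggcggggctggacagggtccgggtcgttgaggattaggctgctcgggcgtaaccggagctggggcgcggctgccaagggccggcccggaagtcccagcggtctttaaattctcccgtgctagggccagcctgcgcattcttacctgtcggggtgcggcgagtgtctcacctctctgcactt

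The set was not equally abundant in the 2 lines before treatment. In untreated BxPC3 the order of mean levels was VEGFA (34.4 FPKM), P4HA1 (22.5), ADM (19.0), NDRG1 (17.1), PFKFB3 (7.52), EGLN3 (2.66), CA9 (2.48), ANKRD37 (0.882), PFKFB4 (0.805) and BNIP3 (0.271 FPKM). Libraries of EGLN3 and CA9 overlapped, as did those of ANKRD37 and PFKFB4. In untreated PANC-1 the order was P4HA1 (42.4 FPKM), ADM (32.3), BNIP3 (14.8), VEGFA (10.2), NDRG1 (4.78), PFKFB3 (4.30), PFKFB4 (1.46), ANKRD37 (1.11), EGLN3 (0.0523) and CA9 (0.0498 FPKM), and EGLN3 and CA9 overlapped. BNIP3 was thus the lowest of the 10 in untreated BxPC3 and the third highest in untreated PANC-1, while EGLN3 and CA9 were the lowest in PANC-1 and in the middle of the order in BxPC3. The 2 tables may have been normalized separately, so levels between lines are set side by side without a test.

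**Figure D1:**
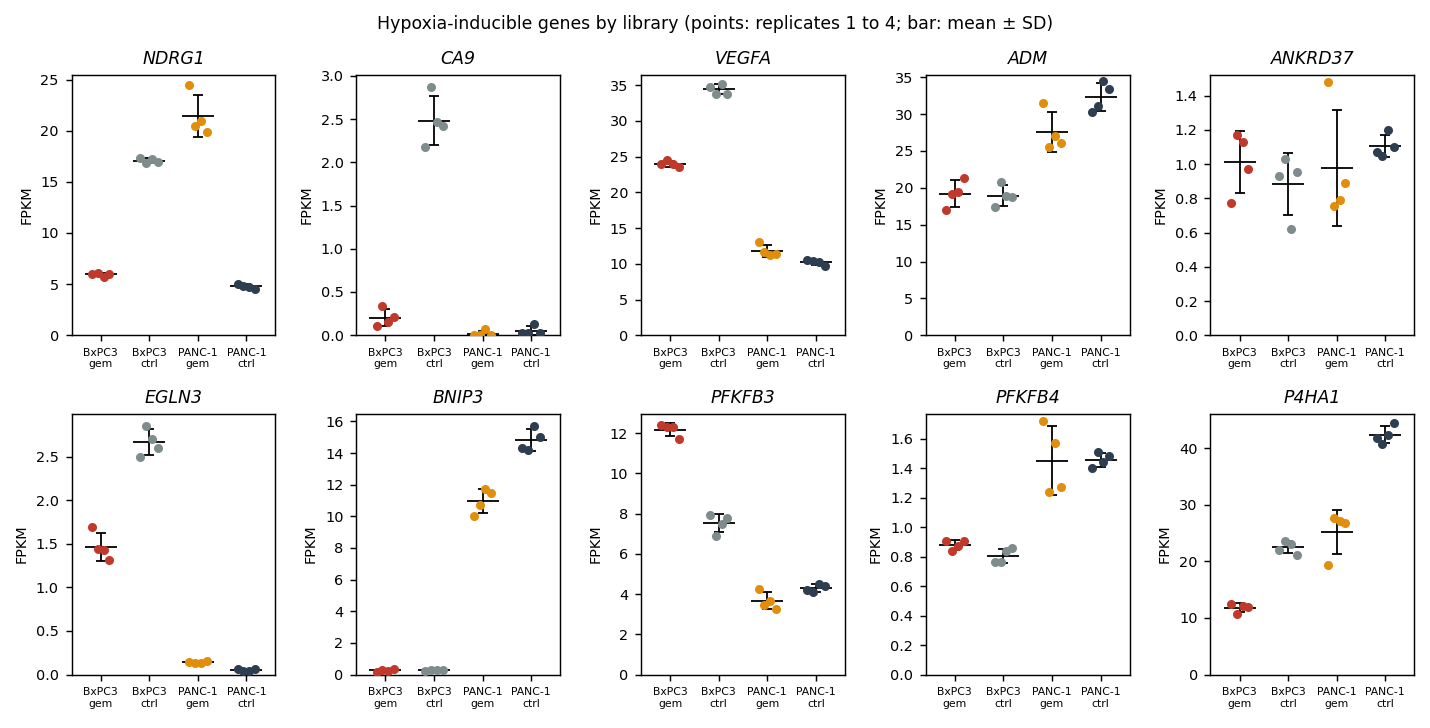
FPKM of each of the 10 genes in each library; points are replicates 1 to 4, bars show the mean ± SD, and each panel has its own axis from 0. NDRG1 lies near 6 FPKM with gemcitabine and 17 FPKM in controls in BxPC3, and between 19.9 and 24.5 FPKM with gemcitabine and 4.53 and 5.06 FPKM in controls in PANC-1.

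With gemcitabine, most of the measurable hypoxia-inducible genes were lower in BxPC3, and they moved both ways in PANC-1. In BxPC3 7 of the 10 passed the filter of 1 FPKM in at least 4 libraries of the line, and 5 of those were lower, 1 higher and 1 not passed (limma, adjusted p under 0.05). Of all 12215 genes tested in BxPC3, 73.4% were called, 37.3% higher and 36.1% lower. In PANC-1 8 of the 10 passed the filter, and 2 were higher, 3 lower and 3 not passed, where 44.8% of 12508 genes were called, 20.7% higher and 24.0% lower. Without PANC-1 gemcitabine replicate 1, 4102 genes were higher and 4626 lower in PANC-1, and 2 of the 8 were higher and 5 lower. The median log2 change was -0.57 over the 7 genes in BxPC3 and -0.15 over the 8 in PANC-1, against 0.00 and -0.02 over all genes tested. CA9 in BxPC3 passed the filter only through the controls, where it is high. The same held for ANKRD37 in PANC-1 once gemcitabine replicate 1 was left out. These counts therefore describe the genes and are no support for a direction. The gemcitabine and control libraries did not overlap for 6 of 7 genes in BxPC3, where 67.5% of all genes tested had no overlap, and for 4 of 8 in PANC-1, where 45.8% had none. In bulk RNA, fewer cells with a transcript and less transcript per cell cannot be told apart.

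**Figure D2:**
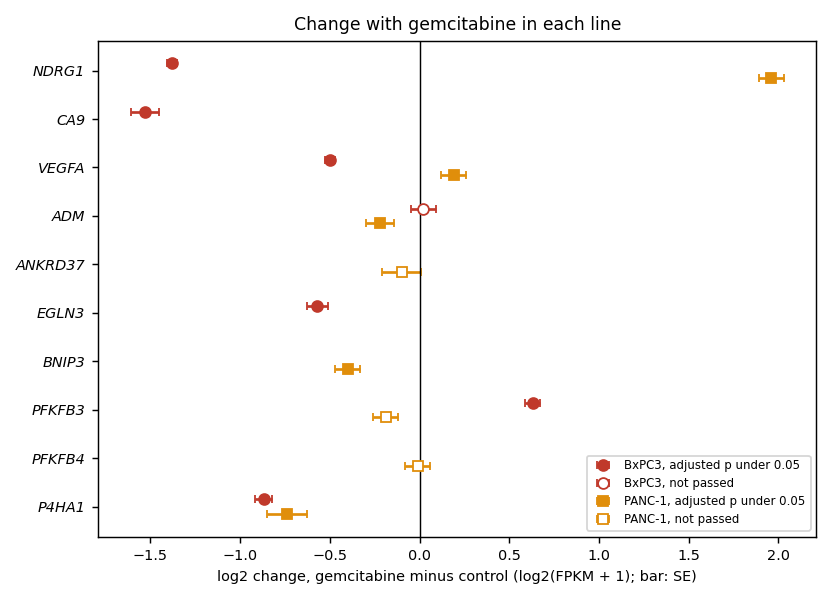
Log2 change with gemcitabine (gemcitabine minus control, log2(FPKM + 1)) for each gene that was tested, with BxPC3 as circles and PANC-1 as squares; bars are SE and filled symbols have an adjusted p under 0.05. NDRG1 lies at -1.38 in BxPC3 and 1.96 in PANC-1, and P4HA1 is the only gene called lower in both.

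NDRG1 (ENSG00000104419, chromosome 8, 133237171 to 133302022, minus strand, GRCh38) encodes a cytoplasmic protein linked to stress responses and differentiation and reported as a suppressor of metastasis in several tumours. NDRG1 in BxPC3 had 6.0, 6.11, 5.71 and 5.99 FPKM with gemcitabine, against 17.3, 16.8, 17.2 and 16.9 FPKM in controls. NDRG1 in PANC-1 had 24.5, 20.5, 21.0 and 19.9 FPKM with gemcitabine, against 5.06, 4.86, 4.69 and 4.53 FPKM in controls. No library of a treated group overlapped its controls, and treatment exchanged the places of the lines: NDRG1 was the higher in BxPC3 among untreated cells and the higher in PANC-1 among treated cells, a comparison of levels across separate tables. It fell 2.86-fold in BxPC3 (log2 change -1.38 ± 0.03 SE, limma adjusted p = 5.58e-10) and rose 4.49-fold in PANC-1 (1.96 ± 0.07 SE, adjusted p = 2.51e-07). The gene was named for these directions, so the values within each line are descriptions too.

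The difference between the lines, the BxPC3 change minus the PANC-1 change, was -3.33 ± 0.08 SE for NDRG1, and by absolute size it stood at rank 19 of 14134 genes. Since NDRG1 was named for these opposite directions, this is a description. Among 10670 genes tested in both lines, 4.12% were called lower in BxPC3 and higher in PANC-1. Only 4 of them (0.0375%) did so by an absolute log2 change of at least 1 in each line: NDRG1, SPP1, KRT15 and MMP10, the other 3 being named after their values were seen. SPP1 encodes osteopontin and changed by -3.24 in BxPC3 and 2.31 in PANC-1. The keratin gene KRT15 changed by -1.36 and 1.39, and MMP10, the protease stromelysin-2, by -1.51 and 1.18. SPP1, KRT15 and MMP10 averaged under 1 FPKM in untreated PANC-1, as did MMP10 in treated BxPC3.

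None of the other NDRG genes was called in both lines. NDRG2 had 7.18 ± 0.322 FPKM with gemcitabine and 4.25 ± 0.368 FPKM in controls in BxPC3 (SD, n = 4 each), a rise of 0.64 on the log2 scale (limma adjusted p = 3.11e-06), and was below the filter in PANC-1. NDRG3 fell in BxPC3 (9.23 ± 0.417 FPKM with gemcitabine, 12.0 ± 0.436 FPKM in controls, log2 change -0.34, adjusted p = 3.68e-05). In PANC-1 it stood at 14.6 ± 0.551 FPKM with gemcitabine and 14.8 ± 0.0793 FPKM in controls (log2 change -0.02, adjusted p = 0.789). NDRG4 rose in PANC-1, with 2.20 ± 0.287 FPKM with gemcitabine and 0.488 ± 0.0429 FPKM in controls (log2 change 1.10, adjusted p = 4.16e-06), passing the filter only through the treated libraries, and was below it in BxPC3.

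The protein-coding genes most like NDRG1 over the 16 libraries, by Pearson correlation of log2(FPKM + 1) centred within each line, were TNFRSF21 (r = 0.996), APLP2 (0.988), BTN3A2 (0.988), TMEM98 (0.987) and WLS (0.987), of 9764 compared. TNFRSF21, a death-domain receptor, had a mean of 181 FPKM with gemcitabine and 299 FPKM in controls in BxPC3, and 45.4 FPKM with gemcitabine and 21.1 FPKM in controls in PANC-1. The genes most opposed were NANOS1 (r = -0.985), PDIA4 (-0.984), CHCHD3 (-0.982), SLFN11 (-0.981) and BMP4 (-0.978). SLFN11, known to sensitise cells to agents that damage replicating DNA, had 2.74 ± 0.0139 FPKM with gemcitabine and 1.71 ± 0.167 FPKM in controls in BxPC3, and 3.75 ± 0.314 FPKM with gemcitabine and 6.56 ± 0.426 FPKM in controls in PANC-1. These correlations rest on the same treatment contrasts and are descriptions. Among the set, VEGFA was the most like NDRG1 on this measure (r = 0.82) and BNIP3 the most opposed (r = -0.76).

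VEGFA, the secreted growth factor that drives new vessels, was also called lower in BxPC3 and higher in PANC-1. In BxPC3 it had 24.0, 24.5, 24.0 and 23.5 FPKM with gemcitabine, against 34.8, 33.8, 35.2 and 33.8 FPKM in controls, and in PANC-1 13.1, 11.6, 11.2 and 11.3 FPKM with gemcitabine, against 10.5, 10.4, 10.3 and 9.68 FPKM in controls. The groups did not overlap in either line. VEGFA fell in BxPC3 (log2 change -0.50 ± 0.03 SE, limma adjusted p = 3.12e-07) and rose slightly in PANC-1 (0.19 ± 0.07 SE, adjusted p = 0.0401). The PANC-1 call was lost when any library other than gemcitabine replicate 1 was left out (highest adjusted p 0.113), and held without gemcitabine replicate 1 (0.14, adjusted p = 0.00626). The changes differed between the lines by -0.69 ± 0.07 SE (adjusted p = 4.98e-07).

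Of the other growth factors and receptors of the VEGF family, PGF, placental growth factor, moved opposite to VEGFA in each line. It rose in BxPC3 (1.47 ± 0.0506 FPKM with gemcitabine, 0.845 ± 0.123 FPKM in controls, log2 change 0.42, limma adjusted p = 6.48e-05), where it passed the filter only through the treated libraries, and fell in PANC-1 (1.32 ± 0.345 FPKM with gemcitabine, 2.21 ± 0.147 FPKM in controls, -0.48, adjusted p = 0.00432). VEGFB, a ligand of the receptor FLT1, fell in BxPC3 (33.2 ± 3.18 FPKM with gemcitabine, 64.7 ± 3.34 FPKM in controls, log2 change -0.94, limma adjusted p = 7.48e-07). In PANC-1 VEGFB had 34.5 ± 8.14 FPKM with gemcitabine and 40.2 ± 1.31 FPKM in controls. It did not pass there, but did without gemcitabine replicate 1. VEGFC, known for lymphatic vessel growth, rose in PANC-1 (8.42 ± 0.283 FPKM with gemcitabine, 3.59 ± 0.247 FPKM in controls, log2 change 1.04, limma adjusted p = 2.22e-06). In BxPC3 VEGFC was below the filter, at 0.649 ± 0.0587 FPKM with gemcitabine and 0.136 ± 0.0351 FPKM in controls. KDR, the main signalling receptor for VEGFA, had 0 to 2 reads in each BxPC3 library. In PANC-1 it had 3.47 ± 0.305 FPKM with gemcitabine and 0.515 ± 0.111 FPKM in controls (log2 change 1.56, adjusted p = 9.18e-07), a level that passed the filter only with treatment. The co-receptor NRP1 rose 2.88-fold in BxPC3 (log2 change 1.16, adjusted p = 9.18e-09) and 2.43-fold in PANC-1 (1.15, adjusted p = 3.36e-06).

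ADM encodes adrenomedullin, a secreted vasodilator peptide. In BxPC3 it had 17.0, 19.1, 19.4 and 21.4 FPKM with gemcitabine, against 17.4, 20.8, 18.9 and 18.7 FPKM in controls, and these groups overlapped throughout (0.02 ± 0.07 SE on the log2 scale, limma adjusted p = 0.852). ADM in PANC-1 had 31.5, 25.6, 27.1 and 26.1 FPKM with gemcitabine, against 30.3, 31.1, 34.5 and 33.4 FPKM in controls. Gemcitabine replicate 1 lay among the controls and the other 3 below them. ADM was called lower in PANC-1 (-0.22 ± 0.08 SE, adjusted p = 0.0459), a call that held only when the library left out was gemcitabine replicate 1 (-0.29, adjusted p = 0.000254) and reached an adjusted p of 0.129 without others. It was also lost with median-ratio scaling (-0.20, adjusted p = 0.0727). Its receptor part CALCRL fell in PANC-1 (log2 change -0.51, limma adjusted p = 0.000727), where it passed the filter only through the controls. Among the RAMP genes, RAMP2 and RAMP3 were below the filter in PANC-1. RAMP1, not counted here as an adrenomedullin receptor part, fell there (-0.66, limma adjusted p = 0.00277).

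CA9 (chromosome 9, 35673856 to 35681159, plus strand, GRCh38), a membrane carbonic anhydrase that acidifies the space around hypoxic cells, showed the largest fold fall of the set. In BxPC3 it had 0.110, 0.340, 0.157 and 0.210 FPKM with gemcitabine (6, 20, 8 and 12 reads), against 2.18, 2.87, 2.46 and 2.42 FPKM in controls (102, 166, 134 and 151 reads). The groups were far apart, with a ratio of mean FPKM 12.2-fold lower with gemcitabine. The log2 change of -1.53 ± 0.08 SE (limma adjusted p = 5.45e-08) understates that ratio because of the pseudocount of 1 FPKM. CA9 passed the filter only through the controls, so these values describe the gene. In PANC-1 CA9 had 0, 0, 3 and 0 reads with gemcitabine and 1, 1, 5 and 1 reads in controls, so no fold is given. Exons of ARHGEF39 on the opposite strand cover 643 bases (38.5%) of the exon bases of CA9, and whether reads were counted by strand is not given in the sources used here. ARHGEF39 moved the other way in BxPC3, with 1.90 ± 0.141 FPKM with gemcitabine and 1.37 ± 0.0727 FPKM in controls.

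Among the other carbonic anhydrases, 1 membrane enzyme fell with CA9 and a cytosolic one rose. CA12, also a membrane enzyme, fell in BxPC3 (0.658 ± 0.0847 FPKM with gemcitabine, 1.41 ± 0.101 FPKM in controls, log2 change -0.54, limma adjusted p = 8.97e-06), passing the filter only through the controls. It was below the filter in PANC-1, with 0.383 ± 0.0515 FPKM with gemcitabine and 0.140 ± 0.0342 FPKM in controls. The cytosolic enzyme CA2 rose in BxPC3 (2.52 ± 0.201 FPKM with gemcitabine, 0.258 ± 0.133 FPKM in controls, log2 change 1.49, adjusted p = 7.32e-08), passing the filter only through the treated libraries.

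EGLN3 encodes the prolyl hydroxylase PHD3, which tags HIF alpha subunits for degradation and is itself a HIF target. In BxPC3 it had 1.69, 1.44, 1.43 and 1.31 FPKM with gemcitabine, against 2.50, 2.85, 2.70 and 2.60 FPKM in controls, without overlap (-0.57 ± 0.06 SE on the log2 scale, limma adjusted p = 8.08e-06). In PANC-1 EGLN3 was below the filter, with 23, 28, 24 and 38 reads with gemcitabine and 11, 8, 8 and 11 reads in controls. Every treated PANC-1 library lay above every control (exact permutation test, 2-sided, unadjusted p = 0.0286, the smallest that 4 against 4 can give). Of the genes tested in PANC-1, 45.8% had no overlap. Limma with the filter dropped gave a log2 change of 0.12 ± 0.03 SE (adjusted p = 0.0236). Limma-voom on the reads without a filter, an alternative chosen after seeing the data, gave a log2 change of 1.39 ± 0.27 SE (adjusted p = 0.00171). EGLN3 thus also ran in opposite directions, at a level of 0.141 ± 0.0151 FPKM with gemcitabine and 0.0523 ± 0.00866 FPKM in PANC-1 controls. The difference between lines was -0.69 ± 0.07 SE (limma adjusted p = 3.1e-07), in which the low PANC-1 level enters with little weight.

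The other prolyl hydroxylases of the family moved in different directions in BxPC3. EGLN1, or PHD2, the main oxygen sensor in most cells, fell slightly in BxPC3 (7.68 ± 0.323 FPKM with gemcitabine, 8.90 ± 0.225 FPKM in controls, log2 change -0.19, limma adjusted p = 0.00138), a call lost with TPM scaling. In PANC-1 it stood at 13.5 ± 1.45 FPKM with gemcitabine and 13.9 ± 0.126 FPKM in controls (-0.05, adjusted p = 0.668). EGLN2, or PHD1, rose in BxPC3 (1.54 ± 0.107 FPKM with gemcitabine, 0.939 ± 0.051 FPKM in controls, log2 change 0.39, adjusted p = 3.99e-05), where it passed the filter only through the treated libraries, and was below the filter in PANC-1.

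P4HA1 (chromosome 10, 73007217 to 73096974, minus strand, GRCh38), the catalytic subunit of the collagen prolyl 4-hydroxylase, was the one gene of the set called lower in both lines, where 12.8% of genes tested in both were. P4HA1 in BxPC3 had 12.4, 10.7, 12.2 and 11.9 FPKM with gemcitabine, against 22.1, 23.6, 23.1 and 21.2 FPKM in controls. P4HA1 in PANC-1 had 19.4, 27.6, 27.1 and 26.8 FPKM with gemcitabine, against 41.9, 40.8, 42.3 and 44.4 FPKM in controls. The groups did not overlap in either line, and gemcitabine replicate 1 of PANC-1 was the lowest of its group. That library read low over genes of low GC content, and the longest P4HA1 transcript has 40.8% GC. ANKRD37, at 42.1% GC, was highest in the same library, and the part of GC content in either value was not tested. The log2 change was -0.87 ± 0.05 SE in BxPC3 (limma adjusted p = 2.01e-07) and -0.74 ± 0.11 SE in PANC-1 (adjusted p = 0.000598), or -0.62 in PANC-1 without that library. The changes differed by -0.14 ± 0.13 SE (adjusted p = 0.39). Without that library the difference was -0.25 and passed (adjusted p = 0.00346).

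P4HA2, the alternative catalytic subunit, moved in opposite directions in the lines. It rose in BxPC3 (4.64 ± 0.189 FPKM with gemcitabine, 2.98 ± 0.156 FPKM in controls, log2 change 0.50, limma adjusted p = 3.77e-06) and fell in PANC-1 (4.23 ± 0.318 FPKM with gemcitabine, 9.37 ± 0.286 FPKM in controls, -0.99, adjusted p = 3.16e-06). The difference for P4HA2 was 1.49 ± 0.07 SE (adjusted p = 6.6e-11). In PANC-1 P4HA3 rose (3.80 ± 0.561 FPKM with gemcitabine, 1.56 ± 0.0745 FPKM in controls, log2 change 0.90, adjusted p = 3.66e-05).

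PFKFB3 and PFKFB4 encode enzymes that set fructose 2,6-bisphosphate, the activator of the glycolytic enzyme phosphofructokinase. PFKFB3 was the only gene of the set called higher in BxPC3. It had 12.4, 12.3, 12.3 and 11.7 FPKM with gemcitabine, against 7.91, 6.91, 7.48 and 7.79 FPKM in controls, without overlap (1.62-fold, 0.63 ± 0.04 SE on the log2 scale, limma adjusted p = 7.45e-07). PFKFB3 in PANC-1 had 4.24, 3.48, 3.67 and 3.27 FPKM with gemcitabine, against 4.19, 4.12, 4.52 and 4.38 FPKM in controls. Gemcitabine replicate 1 lay among the controls and the other 3 below. The PANC-1 change of -0.19 ± 0.07 SE did not pass (adjusted p = 0.0621). Without that library it did (-0.25, adjusted p = 0.000963), and it also did with the GC trend removed (-0.19, adjusted p = 0.00435). The difference between lines was 0.82 ± 0.08 SE (adjusted p = 7.49e-07).

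PFKFB4 did not pass in PANC-1, with 1.72, 1.24, 1.57 and 1.27 FPKM with gemcitabine, against 1.40, 1.51, 1.44 and 1.48 FPKM in controls (log2 change -0.01 ± 0.07 SE, limma adjusted p = 0.917). The treated libraries lay on both sides of the controls. In BxPC3 PFKFB4 was below the filter, at 0.907, 0.837, 0.871 and 0.908 FPKM with gemcitabine and 0.766, 0.760, 0.839 and 0.855 FPKM in controls (exact permutation test, 2-sided, unadjusted p = 0.0857). Exons of UCN2 on the same strand cover 289 bases (4.73%) of the exon bases of PFKFB4. UCN2 in BxPC3 had 2.21 ± 0.278 FPKM with gemcitabine and 0.424 ± 0.196 FPKM in controls. Whether its reads entered the PFKFB4 values was not tested. The related PFKFB2 rose in BxPC3 (5.66 ± 0.205 FPKM with gemcitabine, 3.48 ± 0.154 FPKM in controls, log2 change 0.57, limma adjusted p = 9.58e-07). In PANC-1 it stood at 6.19 ± 0.444 FPKM with gemcitabine and 5.89 ± 0.154 FPKM in controls (0.06, adjusted p = 0.486).

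BNIP3, a mitochondrial outer membrane protein that marks mitochondria for autophagy, was well above the filter in PANC-1 and below it in BxPC3. In PANC-1 it had 10, 10.7, 11.7 and 11.5 FPKM with gemcitabine, against 14.3, 14.2, 15.7 and 15 FPKM in controls, without overlap (-0.40 ± 0.07 SE on the log2 scale, limma adjusted p = 0.00107). BNIP3 in BxPC3 had 0.190, 0.299, 0.253 and 0.323 FPKM with gemcitabine (33 to 59 reads), against 0.248, 0.298, 0.265 and 0.271 FPKM in controls (37 to 55 reads), with overlap (exact permutation test, 2-sided, unadjusted p = 0.914). The difference between lines passed in limma (0.40 ± 0.07 SE, adjusted p = 0.000347) but not in limma-voom on reads, where it was 0.38 (adjusted p = 0.137). Whether reads were divided between BNIP3 and its processed copies was not tested. The most abundant copy, BNIP3P11, held at most 57 reads in a library, against 1159 to 1964 for BNIP3 with gemcitabine and 1894 to 1966 in controls in PANC-1. BNIP3P11 had 1.94 ± 0.223 FPKM with gemcitabine and 3.41 ± 0.674 FPKM in controls in PANC-1.

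BNIP3L, a close relative that also marks mitochondria for autophagy, was called lower in BxPC3. It fell 2.28-fold in BxPC3 (11.3 ± 0.314 FPKM with gemcitabine, 25.8 ± 0.782 FPKM in controls, log2 change -1.12, limma adjusted p = 2.91e-09). In PANC-1 it stood at 12.0 ± 2.00 FPKM with gemcitabine and 13.8 ± 0.855 FPKM in controls (-0.20, adjusted p = 0.204). The changes of BNIP3L differed by -0.93 ± 0.12 SE (adjusted p = 1.29e-05).

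ANKRD37, a small ankyrin-repeat protein with a strongly hypoxia-responsive gene, was low in every group. In PANC-1 it had 1.48, 0.755, 0.790 and 0.891 FPKM with gemcitabine, against 1.07, 1.05, 1.20 and 1.10 FPKM in controls. Gemcitabine replicate 1 lay above all controls and the other 3 below them (log2 change -0.10 ± 0.11 SE, limma adjusted p = 0.473). Without that library ANKRD37 was lower (-0.22, adjusted p = 0.00601), but only the controls then reached the filter of 1 FPKM, so the value describes the gene. In BxPC3 it was below the filter, with 0.771, 1.17, 1.13 and 0.973 FPKM with gemcitabine and 0.928, 1.03, 0.618 and 0.955 FPKM in controls (exact permutation test, 2-sided, unadjusted p = 0.4). Exons of UFSP2 on the opposite strand cover 909 bases (35.2%) of its exon bases, and UFSP2 did not pass in either line (adjusted p = 0.532 in BxPC3 and 0.695 in PANC-1).

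**Figure D3:**
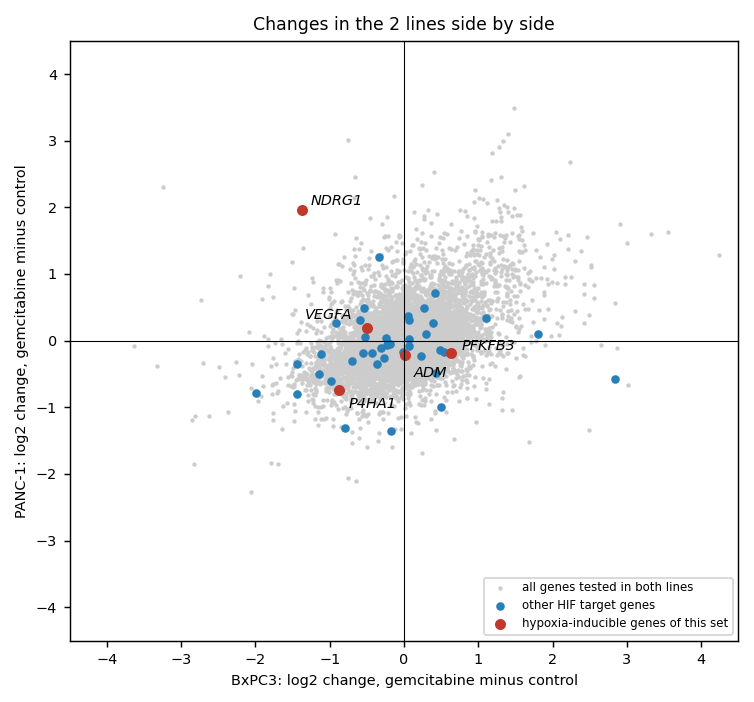
Log2 change with gemcitabine in BxPC3 (horizontal) and PANC-1 (vertical) for every gene tested in both lines, in grey, with other HIF targets in blue and the 5 genes of the set tested in both lines in red. NDRG1 lies in the upper left at -1.38 and 1.96, VEGFA nearer the centre in the same quadrant, and P4HA1 in the lower left.

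Across the 10 genes the changes themselves differed between lines for 6 of 10, where 51.8% of 14134 genes did. The difference was higher for 2 of the 10 and lower for 4, where 26.6% and 25.2% of all genes were. The BxPC3 change was the more negative for NDRG1, CA9, VEGFA and EGLN3 and the more positive for BNIP3 and PFKFB3. For CA9, EGLN3 and BNIP3 one line hardly expressed the gene, so the difference mostly repeats the change in the other line. ADM, ANKRD37, PFKFB4 and P4HA1 did not pass. Without PANC-1 gemcitabine replicate 1 the difference passed for ADM (0.30, limma adjusted p = 0.0106) and ANKRD37 (0.31, adjusted p = 0.0175) as well as for P4HA1. More genes passed in general without that library, 4685 of 14134 with a higher difference and 4509 with a lower one. Of the 5 genes tested in both lines, 2 were called in opposite directions, where 8.47% of all genes tested in both were, and these were NDRG1 and VEGFA. NDRG1 was named for this pattern, so nothing is read from that count.

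The regulators of the pathway were examined as a list of 18 HIF pathway genes. In BxPC3 4 of 16 tested were higher, 6 lower and 6 not passed, with a median log2 change of -0.07. In PANC-1 1 of 16 was higher, 5 lower and 10 not passed, with a median of -0.11. The share called was 62.5% in BxPC3 and 37.5% in PANC-1, below the 73.4% and 44.8% of all genes tested. HIF1A, the main oxygen-labile subunit, rose in BxPC3 (114 ± 6.27 FPKM with gemcitabine, 77.8 ± 4.64 FPKM in controls, log2 change 0.55, limma adjusted p = 9.95e-06). HIF1A in PANC-1 had 37.2 ± 7.63 FPKM with gemcitabine and 29.7 ± 1.12 FPKM in controls (0.29, adjusted p = 0.137), and it passed there without gemcitabine replicate 1. EPAS1, which encodes HIF-2 alpha, fell in PANC-1 (19.3 ± 1.17 FPKM with gemcitabine, 26.7 ± 0.653 FPKM in controls, -0.45, adjusted p = 0.000284). In BxPC3 it stood at 35.2 ± 1.99 FPKM with gemcitabine and 36.5 ± 2.54 FPKM in controls (-0.05, adjusted p = 0.463).

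ARNT, VHL and CITED2 fell in both lines. ARNT, the partner of the HIF subunits, had 3.29 ± 0.324 FPKM with gemcitabine and 5.63 ± 0.218 FPKM in controls in BxPC3 (log2 change -0.63, limma adjusted p = 4.3e-06), and 7.48 ± 0.194 FPKM with gemcitabine and 9.65 ± 0.167 FPKM in controls in PANC-1 (-0.33, adjusted p = 0.00072). VHL, the recognition subunit of the ligase, had 14.8 ± 0.386 FPKM with gemcitabine and 23.2 ± 1.36 FPKM in controls in BxPC3 (-0.61, adjusted p = 9.92e-07). In PANC-1 VHL had 30.4 ± 2.36 FPKM with gemcitabine and 36.1 ± 0.613 FPKM in controls (-0.25, adjusted p = 0.0129). CITED2, a HIF target that competes with HIF for its coactivators, fell by 0.80 in BxPC3 (adjusted p = 1.86e-07) and by 1.32 in PANC-1 (adjusted p = 4.26e-06). HIF1AN, the asparaginyl hydroxylase that blocks coactivator binding, did not pass in either line (limma adjusted p = 0.0505 in BxPC3 and 0.12 in PANC-1). It passed in BxPC3 with median-ratio scaling, and in PANC-1 without gemcitabine replicate 1. Its difference between lines passed (-0.21 ± 0.06 SE, limma adjusted p = 0.00868), but not with TPM scaling or the replicate block.

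Of 47 other HIF targets outside glycolysis, 41 were tested in BxPC3 and 24 were lower, 12 higher and 5 not passed, with a median log2 change of -0.23. In PANC-1 13 of 42 were lower, 12 higher and 17 not passed, with a median of -0.10. Of all genes tested, 36.1% were lower and 37.3% higher in BxPC3, and 24.0% lower and 20.7% higher in PANC-1. DDIT4, an inhibitor of the growth kinase complex mTORC1, fell in BxPC3 (34.8 ± 1.74 FPKM with gemcitabine, 142 ± 7.81 FPKM in controls, -2.0, limma adjusted p = 7.79e-10) and in PANC-1 (55.5 ± 16.5 FPKM with gemcitabine, 93.6 ± 6.58 FPKM in controls, -0.78, adjusted p = 0.0048). The transcriptional repressor BHLHE41 fell by 1.44 in BxPC3 (adjusted p = 1.96e-09) and by 0.35 in PANC-1 (adjusted p = 0.0136). EDN1, the precursor of the vasoconstrictor endothelin, moved in opposite directions in the lines. It rose in BxPC3 (15.6 ± 0.354 FPKM with gemcitabine, 1.32 ± 0.203 FPKM in controls, 2.84, adjusted p = 2.76e-10) and fell in PANC-1 (2.01 ± 0.263 FPKM with gemcitabine, 3.48 ± 0.418 FPKM in controls, -0.57, adjusted p = 0.000793).

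In PANC-1 the strongest of these targets went both ways. The lipid droplet coat gene PLIN2 rose (16.3 ± 0.522 FPKM with gemcitabine, 6.26 ± 0.098 FPKM in controls, log2 change 1.25, limma adjusted p = 3.47e-07). HILPDA, an inhibitor of triglyceride breakdown on the same droplets, fell (4.70 ± 0.467 FPKM with gemcitabine, 13.5 ± 0.479 FPKM in controls, -1.35, adjusted p = 1.21e-06). STC2, a secreted glycoprotein, rose (87.2 ± 7.43 FPKM with gemcitabine, 41.4 ± 0.998 FPKM in controls, 1.05, adjusted p = 3.91e-06) and was below the filter in BxPC3. Among the receptors of the set, the scavenger receptor ACKR3, which binds adrenomedullin as well as chemokines, fell in BxPC3 (2.83 ± 0.232 FPKM with gemcitabine, 14.9 ± 0.858 FPKM in controls, -2.06, adjusted p = 1.09e-09).

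**Figure D4:**
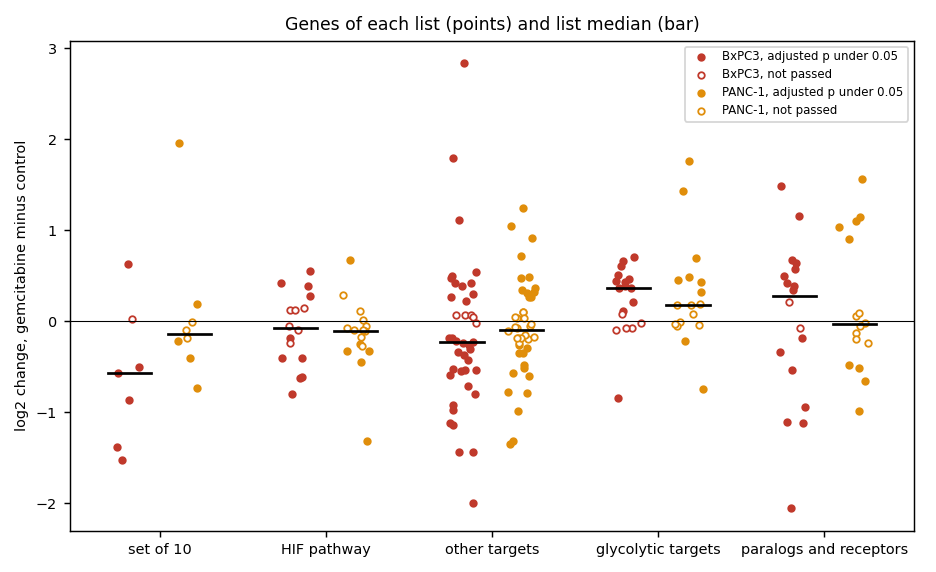
Log2 change with gemcitabine (gemcitabine minus control) of the tested genes of each list, BxPC3 left and PANC-1 right within a list; filled points have an adjusted p under 0.05 and bars are list medians. The glycolytic targets have medians of 0.37 in BxPC3 and 0.18 in PANC-1, while the set of 10 has -0.57 and -0.15.

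Among glycolytic HIF targets more genes were called higher than lower in both lines. In BxPC3 12 of 18 tested were higher, 1 lower and 5 not passed (median log2 change 0.37), and in PANC-1 7 of 17 were higher, 2 lower and 8 not passed (median 0.18). Over all genes tested, the shares higher and lower were 37.3% and 36.1% in BxPC3, and 20.7% and 24.0% in PANC-1. PFKP, the platelet isoform of phosphofructokinase, had 53.9 ± 1.76 FPKM with gemcitabine and 32.5 ± 0.683 FPKM in controls in BxPC3 (log2 change 0.71, limma adjusted p = 6.39e-08). HK2, the inducible hexokinase, rose 4.82-fold in PANC-1 (8.10 ± 0.507 FPKM with gemcitabine, 1.68 ± 0.0797 FPKM in controls, adjusted p = 1.28e-07), and the glucose transporter SLC2A1 rose 2.89-fold (29 ± 4.44 FPKM with gemcitabine, 10 ± 0.808 FPKM in controls, adjusted p = 9.63e-06). ALDOC, an aldolase isoform, fell by 0.85 in BxPC3 (limma adjusted p = 2.95e-07), where it was the 1 gene lower, and by 0.75 in PANC-1 (adjusted p = 5.43e-05), where PFKM, the muscle phosphofructokinase, was the other gene lower.

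Of 28 paralogs and receptors of the set, in BxPC3 9 of 18 tested were higher and 7 lower (median log2 change 0.27), and in PANC-1 5 of 16 were higher and 4 lower (median -0.03), beside 37.3% higher and 36.1% lower of all genes in BxPC3 and 20.7% higher and 24.0% lower in PANC-1. Without PANC-1 gemcitabine replicate 1, the HIF pathway list had 3 higher and 7 lower of 16 tested in PANC-1, and the other targets 13 higher and 19 lower of 42. The glycolytic targets had 8 higher and 3 lower of 17, and the paralogs and receptors 6 higher and 6 lower of 16. Over all 12508 genes tested, 4102 were higher and 4626 lower in that setting. TPM scaling brought the median of the HIF pathway list in BxPC3 to 0.01, with 5 higher and 5 lower. The median over all genes tested in BxPC3 moved from 0.00 to 0.09 with the same scaling. No call within a line on these lists changed sign with median-ratio or TPM scaling. The lists share some genes with each other.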

How the data were processed

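The members and the gene lists were chosen with earlier results of these data known. Per the labels' protocols, RNA was isolated with a column kit and libraries were made after poly-A enrichment. For each line the authors deposited a table of FPKM per gene, per the file headers, with the gene length in bases beside it. Per the submitters' processing notes, CASAVA and HISAT2 were used, with no version stated. The notes name the mouse build mm10, but 58724 of 58735 deposited genes have GENCODE 29 coordinates on GRCh38. For the read counter and its use of strand, nothing is given in the sources used here.

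Multiplied by gene length, FPKM came in whole steps in every library, for 100.0% of the values below 2000 reads (tolerance 0.02 reads), and these steps gave reads per gene. Intervals and floors in reads cover counting error only. Libraries of a group differed by more than counting noise (chi-square per degree of freedom at least 2.074). Groups and replicate numbers came from sample titles. Each line was tested with limma 3.58.1 in R 4.3.3 (trend, robust) on log2(FPKM + 1), over genes reaching 1 FPKM in 4 or more libraries. P-values were adjusted over all of those genes (Benjamini-Hochberg). Whether the change differed between lines was tested as the interaction in 1 fit of all 16 libraries. A fold is the mean FPKM with gemcitabine over that in controls. The rule for named genes took the 10 members, the 4 genes with the smallest p per list and line, regulators and paralogs, and 5 genes most alike and 5 most opposed to NDRG1. Some genes that this rule took are given only in the counts. The alternatives left out each library in turn, added the replicate block, removed each library's GC trend, set the pseudocount to 0.1, dropped the filter, scaled by TPM or median ratio, used limma with neither trend nor robust, ran limma-voom on the reads, or asked for an absolute log2 change of 1. The procedure was tested on simulated data. Python 3.11.15, pandas 2.3.3 and matplotlib 3.10.9 were used.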

Additional observations from a re-analysis of the deposited data

Results flagged for a closer look

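By the test of the difference itself (BxPC3 change minus PANC-1 change, log2, limma), 6 of the 10 genes differed between the lines. Of all 14134 genes tested, 51.8% did. The difference was -3.33 for NDRG1 (adjusted p = 3.39e-14), which had been named for this pattern. It was -1.49 for CA9 (adjusted p = 1.63e-09), which passed the filter only through the BxPC3 controls. For VEGFA it was -0.69 (adjusted p = 4.98e-07) and for EGLN3 -0.69 (adjusted p = 3.1e-07). The remaining differences were 0.40 for BNIP3 (adjusted p = 0.000347) and 0.82 for PFKFB3 (adjusted p = 7.49e-07). CA9 and EGLN3 were hardly expressed in PANC-1, and BNIP3 in BxPC3.

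Of 40 groups of 4 libraries examined, 4 held a library far from the other 3, and chance gives about 1 in 20. P4HA1 had 19.4 FPKM in PANC-1 gemcitabine replicate 1. PFKFB3 had 11.7 FPKM in BxPC3 gemcitabine replicate 4. CA9 had 0.0704 FPKM in PANC-1 gemcitabine replicate 3 and 0.127 FPKM in PANC-1 control replicate 3, which are 3 and 5 reads.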

How the results depend on the processing

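Every called change of a gene of the set kept its direction under each alternative run. The genes that reversed were not called: ADM in BxPC3 (0.02) went to -0.02 without control replicate 1 and -0.04 without gemcitabine replicate 4, with up to 0.07 without gemcitabine replicate 1, and PFKFB4 in PANC-1 (-0.01) to 0.00 with median-ratio scaling, 0.03 without gemcitabine replicate 2 and 0.02 without gemcitabine replicate 4, with -0.06 without gemcitabine replicate 1. The cause was not tested. With an absolute log2 change of at least 1, 538 genes were higher and 491 lower in BxPC3 (0 and 2 of the set), 401 and 133 in PANC-1 (1 and 0 of the set), and the difference was higher for 446 and lower for 647 (0 and 2 of the set). With each library left out in turn, PANC-1 had 2189 to 4102 genes higher and 2452 to 4626 lower, the top of each range without gemcitabine replicate 1, and 1 to 2 of the set higher and 2 to 5 lower. The difference was then higher for 2 to 4 of the set and lower for 4 to 5. Over all 14134 genes it was higher for 3497 to 4685 and lower for 3351 to 4509. The highest count in each direction came without PANC-1 gemcitabine replicate 1. Limma-voom on reads left 1 of the set with a higher difference, with and without the filter, and without the filter gave 4151 genes higher in PANC-1. No pairing by replicate number was seen: deviations of equally numbered libraries correlated by -0.33 to 0.18 in BxPC3 and -0.38 to 0.19 in PANC-1. In each line 1 of 4 treated libraries correlated best with its own number. Whether equally numbered libraries shared a culture or batch was not tested. With the replicate block, 1 of the set was higher in PANC-1, as VEGFA (adjusted p = 0.0916) and ADM (adjusted p = 0.111) did not pass. Of the list genes, the block ended the PANC-1 calls of VHL, PFKM, PPP1R3C and GBE1 and the BxPC3 calls of HILPDA and SLC2A1. Depth limits CA9 and EGLN3 in PANC-1 and BNIP3 in BxPC3.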
